A study of Rattus norvegicus with 4 samples.

Results

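The vomeronasal and trace amine receptor genes of the rat were read on 4 arrays of NR8383 cells. Members were all gene probes whose accession leads to a rat RefSeq symbol starting with Vom1r, Vom2r or Taar. They came to 164 probes of 139 genes, out of 16581 named genes on the array: 54 Vom1r genes, 68 Vom2r genes and 17 Taar genes. The rule goes by gene name, and the set was chosen with earlier results of these data known. NR8383 is a macrophage line started from a rat lung lavage, grown partly attached and partly floating, and labelled with 20 passages. All 4 arrays belong to 1 group of exposed cells, each an Agilent 1-colour array of Cy3-labelled cRNA from 1 biological replicate. The cells had been kept for 4 h with NRCWE021, a zinc iron oxide (ZnFe2O4), at 17 µg/mL. The design also names unexposed cells, which are not analysed here, so no value below measures an effect of the exposure and no test between groups was possible. All values come from 1 cell line.

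Vomeronasal receptors are G protein-coupled receptors of the vomeronasal organ, a sensory patch in the nose that detects pheromones and other social cues in rodents. Type 1 receptors (Vom1r) have a short extracellular end and couple to the inhibitory G protein subunit Gnai2. Type 2 receptors (Vom2r) carry a large extracellular ligand-binding end, couple to Gnao1, and answer mostly to peptides and proteins. Both signal through a phospholipase C and the channel Trpc2 in rodents. Trace amine-associated receptors (Taar) detect volatile amines in the main olfactory epithelium, where they signal through Gnal, Adcy3 and the cyclic nucleotide-gated channel. Taar1 is the exception, an intracellular receptor for tyramine and phenethylamine found in brain and other organs. Apart from Taar1, these genes are known mainly from sensory neurons of the nose, so macrophages were taken here as cells where most of them should be silent.

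The arrays themselves stand apart in pairs. The dimmest of 10 spike-in probes, RNA of known kind added to each sample, averaged 3.83, 537, 109 and 3.92 intensity units over 35 spots on replicates 1 to 4, and 0, 35, 34 and 0 of those spots were marked as well above background. The negative control spots, which are made to match no transcript, were brighter on replicates 2 and 3 as well, with medians of 3.45, 23.0, 12.9 and 3.34. The results below are therefore given by array, and replicates 1 and 4 are set beside 2 and 3. Per the file headers, all 4 arrays lie on 1 slide with 1 scan, and effects within the slide were not tested. Whether the receptor signals on replicates 2 and 3 share a source with that of the dim spike-in was not tested.

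The scanner software marks each spot as well above background or not, and a gene was counted as above background on an array if any of its probes carried that mark. On both replicates 1 and 4, 14 of the 139 receptor genes were above background (10.1%), against 45.9% of all named genes. On all 4 arrays, 12 receptor genes were (8.63%), against 42.3% of all named genes. These 14 genes were 11 Vom2r and 3 Vom1r genes, and no Taar gene was among them. A set of 41 receptor genes (29.5%) passed on replicates 2 and 3 but failed on 1 and 4, against 27.6% of all named genes. A further 50 (36.0%) passed on replicate 2 alone, against 12.8% of all named genes, and 29 (20.9%) passed on no array, against 6.56%. Replicates 1 and 4 thus read few of the receptor genes, and replicate 2 read most of them (75.5%), below the 91.3% of all named genes it read.

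The sequence just upstream of the genes is shown for a group of Vom2r genes, since 7 of the 14 receptor genes read on replicates 1 and 4 have it in common. These 7, Vom2r1, Vom2r4, Vom2r5, Vom2r6, Vom2r65, Vom2r72 and Vom2r73, share a nearly alike stretch before the gene start. The 250 bases upstream of the start, from RefSeq on the GRCr8 build, were available for 127 of the 139 genes. Joining genes at 80% identity or more put 11 Vom2r genes in 1 group, the 7 above with Vom2r3, Vom2r67, Vom2r69 and Vom2r70. This grouping was made after the signals had been seen, so it has no test. Each sequence below runs 5′ to 3′ on its own gene's strand. Capitals mark the longest run that all 11 share, which begins 214 bases before the start in Vom2r6 and 198 in Vom2r72. Vom2r3 and Vom2r67 are shown as members of the group not above background on replicates 1 and 4, and Vom2r2 as a gene above background there whose upstream sequence is unlike the others and holds no such run.
Vom2r6, chr1:3025673-3025922, plus strand: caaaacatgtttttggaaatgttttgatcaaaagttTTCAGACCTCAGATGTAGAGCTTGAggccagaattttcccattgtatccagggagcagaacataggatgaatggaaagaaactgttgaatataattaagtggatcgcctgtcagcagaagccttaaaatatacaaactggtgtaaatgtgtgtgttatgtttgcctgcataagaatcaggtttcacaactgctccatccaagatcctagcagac
Vom2r1, chr1:164224-164473, plus strand: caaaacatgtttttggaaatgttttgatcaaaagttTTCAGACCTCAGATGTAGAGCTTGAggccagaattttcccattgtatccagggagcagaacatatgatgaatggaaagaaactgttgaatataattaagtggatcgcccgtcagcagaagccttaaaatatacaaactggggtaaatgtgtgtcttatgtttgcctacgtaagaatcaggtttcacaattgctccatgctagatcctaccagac
Vom2r4, chr1:2889567-2889816, minus strand: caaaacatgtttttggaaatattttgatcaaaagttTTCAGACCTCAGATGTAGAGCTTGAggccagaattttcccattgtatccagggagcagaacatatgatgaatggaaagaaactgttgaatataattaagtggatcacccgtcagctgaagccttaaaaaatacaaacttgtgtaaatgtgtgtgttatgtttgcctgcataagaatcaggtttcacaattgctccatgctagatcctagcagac
Vom2r3, chr1:2759374-2759623, plus strand: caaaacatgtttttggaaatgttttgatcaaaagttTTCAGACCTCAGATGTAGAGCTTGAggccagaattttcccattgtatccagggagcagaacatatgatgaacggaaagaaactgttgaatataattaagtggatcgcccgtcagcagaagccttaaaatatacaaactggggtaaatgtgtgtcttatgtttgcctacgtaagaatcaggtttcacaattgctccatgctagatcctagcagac
Vom2r72, chr14:1039303-1039552, minus strand: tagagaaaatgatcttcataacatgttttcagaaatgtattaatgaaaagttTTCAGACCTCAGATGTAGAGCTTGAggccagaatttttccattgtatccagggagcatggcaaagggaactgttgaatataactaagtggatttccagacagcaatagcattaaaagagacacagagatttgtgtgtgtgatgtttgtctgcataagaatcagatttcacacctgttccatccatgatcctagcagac
Vom2r67, chr14:273380-273629, minus strand: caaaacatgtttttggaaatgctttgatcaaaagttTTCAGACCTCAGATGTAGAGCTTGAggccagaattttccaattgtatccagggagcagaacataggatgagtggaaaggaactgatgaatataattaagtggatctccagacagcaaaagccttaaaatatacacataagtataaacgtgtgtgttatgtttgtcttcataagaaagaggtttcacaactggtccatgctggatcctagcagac
Vom2r2, chr1:1168436-1168685, minus strand: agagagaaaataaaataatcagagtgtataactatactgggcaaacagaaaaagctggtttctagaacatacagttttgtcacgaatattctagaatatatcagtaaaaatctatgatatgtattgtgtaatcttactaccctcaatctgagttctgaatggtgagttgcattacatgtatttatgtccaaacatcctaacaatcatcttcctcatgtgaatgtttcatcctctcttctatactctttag
The shared run, TTCAGACCTCAGATGTAGAGCTTGA, is 25 bases long. Both strands of all 33469 upstream windows of the same length were searched for it, and 15 windows held it (0.0448%): the 11 genes of the group and 4 entries with no receptor symbol on the same chromosomes. A match is a description of the letters only.

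Within the group, upstream identity ran from 74.8% to 99.2%, while the median over all 8001 pairs of receptor genes was 45.2% and the highest identity from the group to any other receptor gene was 56.8%. Above background on both replicates 1 and 4 were 7 of the 11 group genes (63.6%), and 6 of the other 116 genes with a sequence (5.17%). Of all named genes 45.9% were. The group's genes lie at 2 places: 5 of 6 on chromosome 1 and 2 of 5 on chromosome 14 were above background on both. A like sequence did not go with a like reading in each gene. Vom2r1 and Vom2r3 are 99.2% identical upstream, and Vom2r3 was not above background on replicates 1, 3 or 4. The other 15 sets of like upstream sequence hold 38 genes, of which 1 was above background on both.

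Vom2r6, on chromosome 1, had processed signals of 1010, 1494, 405 and 645 on replicates 1 to 4. The processed signal is the spot intensity after the scanner software's background and trend correction, in intensity units. Vom2r4 had 949, 1318, 363 and 698 with 1 of its probes, and 9.44, 1070, 173 and 3.56 with the other, which was above background on replicates 2 and 3 alone. The 2 probes of Vom2r4 therefore disagree on replicates 1 and 4. Vom2r1 is read by 3 probes that were each above background on all 4 arrays, with 930, 1003, 346 and 686 for the first, 543, 642, 226 and 354 for the second, and 44.0, 741, 221 and 25.7 for the third.

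Both probes of Vom2r65 were above background on all 4 arrays, at 277, 615, 114 and 187 and at 303, 273, 96.6 and 174. Vom2r5 had 222, 304, 168 and 132, and Vom2r2 had 54.9, 807, 298 and 51.2. Each of these genes lies in the first run of receptor genes on chromosome 1. There 6 of the 7 measured members were above background on replicates 1 and 4, against 45.9% of all named genes. These 6 were Vom2r1, Vom2r65, Vom2r2, Vom2r4, Vom2r5 and Vom2r6. The seventh, Vom2r3, read 3.30, 108.5, 11.6 and 3.02, above background on replicate 2 alone. Because no probe or transcript sequences were compared here, a probe reading its own transcript and one reading a neighbour's cannot be told apart.

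On chromosome 14, Vom2r72 had 580, 448, 224 and 333, and Vom2r73 had 151, 458, 99.6 and 84.8, all above background. Their upstream sequences are 97.2% identical. The other 3 genes measured there were not above background on replicates 1 and 4. Vom2r70 had 13.4, 545, 33.1 and 12.9, Vom2r67 had 3.38, 92.7, 11.8 and 2.97, and Vom2r69 had 3.11, 252, 11.5 and 2.81. Of these 3, Vom2r70 was above the 99th percentile of the negative control spots on both replicates.

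**Figure D1:**
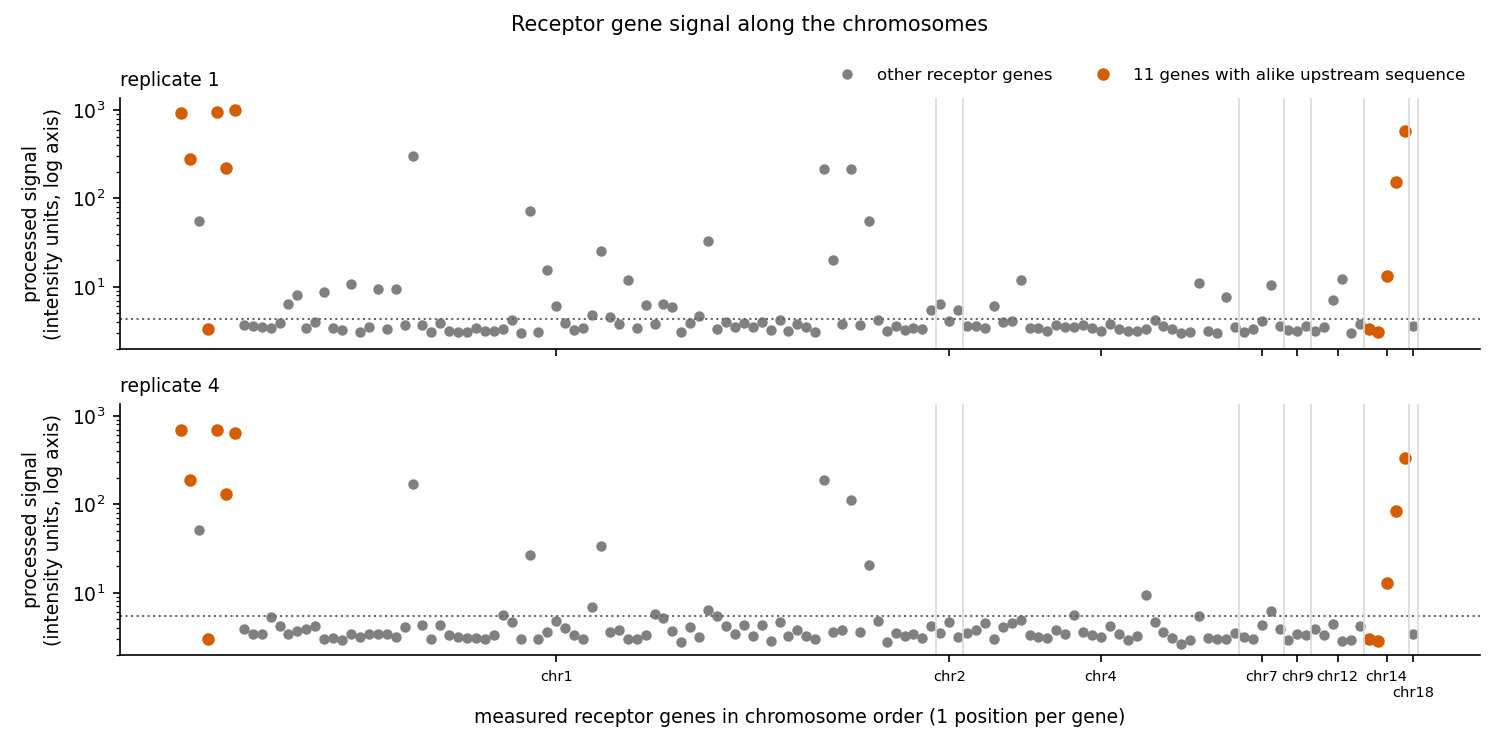
Each point is 1 receptor gene, placed in chromosome order on the x axis, with its processed signal (intensity units, log axis) on replicate 1 in the upper panel and replicate 4 in the lower one; the dotted line is the 99th percentile of the negative control spots. The 11 genes with alike upstream sequence (orange) sit at the start of chromosome 1 and on chromosome 14, and 8 of them lie above the line in both panels.

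The rest of the Vom2r genes above background on both replicates 1 and 4 were Vom2r8, Vom2r18 and Vom2r34, which are scattered over chromosome 1. Vom2r8 had 302, 262, 102 and 169. Vom2r34 had 216, 340, 220 and 187 with 1 probe, and 9.96, 36.3, 14.6 and 3.73 with the other, which was above background on no array. Vom2r18 had 25.3, 1249, 265 and 33.7 with 1 probe and 3.69, 165, 24.4 and 3.49 with the other. So for Vom2r4, Vom2r18 and Vom2r34 the call on replicates 1 and 4 rests on 1 probe of 2. Of the 22 receptor genes with several probes, these 3 disagreed on replicate 1 or 4, and 16 disagreed on at least 1 of the 4 arrays.

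Among the type 1 receptors, 3 of 54 genes (5.56%) were above background on both replicates 1 and 4, against 45.9% of all named genes. Vom1r55 had 216, 241, 130 and 111, above background on all 4 arrays. Vom1r61 had 55.0, 306, 40.7 and 20.6 and missed the mark on replicate 3. Vom1r23 had 71.9, 46.2, 17.7 and 26.4, above background on replicates 1 and 4 and not on 2 or 3. The negative control spots were brighter on replicates 2 and 3, and why Vom1r23 missed the mark there was not tested. Only Vom1r55 of the Vom1r genes was above background on all 4 arrays, where 42.3% of all named genes were.

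**Figure D2:**
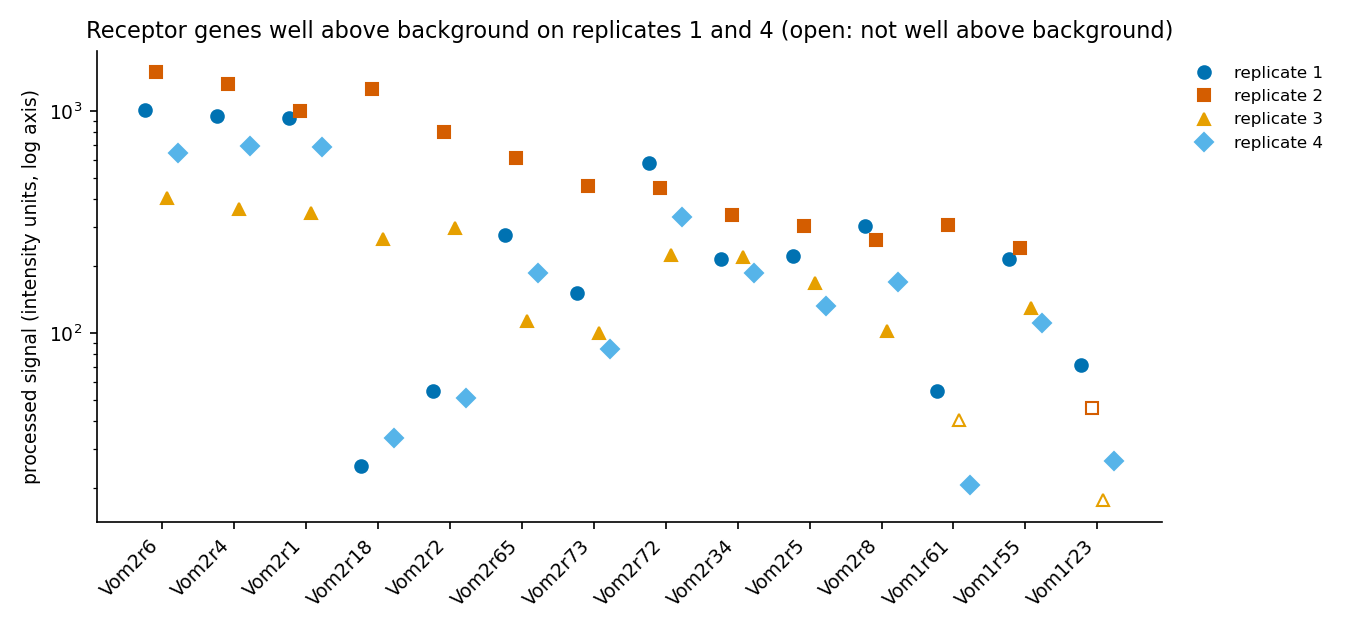
Each of the 14 receptor genes above background on both replicates 1 and 4 has 4 points, its processed signal (intensity units, log axis) on each array, with open points where it was not well above background. Where a gene has several probes, the one of highest mean signal is drawn. Vom2r6 had 1010 and 1494 on replicates 1 and 2 and Vom2r18 had 25.3 and 1249, while the probe of Vom2r4 not drawn had 9.44 and 1070.

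The first measured type 1 genes by number read low on replicates 1 and 4. Vom1r1 had 3.75, 222, 33.6 and 4.14, Vom1r5 had 3.16, 80.9, 12.6 and 3.30, and Vom1r6 had 3.09, 335, 12.8 and 3.15. Type 1 genes made up 21 of the 29 receptor genes above background on no array, and Vom2r genes the other 8. These were 38.9% of the Vom1r genes and 11.8% of the Vom2r genes, against 6.56% of all named genes. In number order the first of these were Vom1r5, Vom1r7, Vom1r9, Vom1r13, Vom1r29 and Vom1r32. Vom1r13 had 3.16, 22.8, 12.6 and 3.34, and Vom1r32 had 3.09, 22.7, 11.5 and 2.80, which lie near the median of the negative control spots on each array (3.45, 23.0, 12.9 and 3.34). Vom1r9 had 3.16, 42.0, 12.1 and 3.02, on each array under the 99th percentile of its negative control spots.

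No trace amine receptor gene was above background on replicates 1 or 4. Replicate 2 held 16 of the 17 above background (94.1%), near the 91.3% of all named genes, and replicate 3 held 6 (35.3%), against 75.2%. Over the 18 probes, signals ran from 3.09 to 10.7 on replicate 1, from 73.9 to 669 on replicate 2, from 11.9 to 106 on replicate 3 and from 2.88 to 5.39 on replicate 4. Taar1 had 3.38, 331, 26.7 and 3.42 on replicates 1 to 4. Of the receptors of olfactory neurons, Taar5, a trimethylamine receptor, had 10.7, 73.9, 92.4 and 3.42 and was above background on replicate 3 alone. Taar3, Taar4, Taar7e, Taar8c and Taar9 were above background on both replicates 2 and 3. Taar9, for example, had 3.69, 352, 106 and 3.92. The remaining 11 genes, Taar1, Taar2, Taar6, Taar7a, Taar7b, Taar7c, Taar7d, Taar7g, Taar7h, Taar8a and Taar8b, were above background on replicate 2 alone. On replicate 4, none of the 18 Taar probes was above the 99th percentile of the negative control spots, and on replicate 1, 5 were. On replicates 2 and 3, 15 and 10 were. Taar4 (120) and Taar7b (124) were marked on replicate 2 though under that percentile, which was 138 there. On replicate 2, 4 negative control spots were marked as well. All 17 genes lie in 1 run on chromosome 1.

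By array, the mark of well above background was on 19 of 164 receptor probes on replicate 1 (11.6%), 122 of 163 on replicate 2 (74.8%), 62 of 164 on replicate 3 (37.8%) and 17 of 164 on replicate 4 (10.4%). The shares of all gene probes were 38.5%, 87.9%, 66.3% and 32.2%. The order of the 4 arrays is the same in both. On each array, the receptor share was below the share of all gene probes. By gene, Vom2r were above background in 12, 59, 39 and 11 of 68 genes on replicates 1 to 4, Vom1r in 4, 30, 11 and 3 of 54, and Taar in 0, 16, 6 and 0 of 17. All named genes were above background in 52.2%, 91.3%, 75.2% and 46.2%. The Vom2r shares were 17.6%, 86.8%, 57.4% and 16.2%, and the Vom1r shares 7.41%, 55.6%, 20.4% and 5.56%, each below the share of all named genes on the same array.

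**Figure D3:**
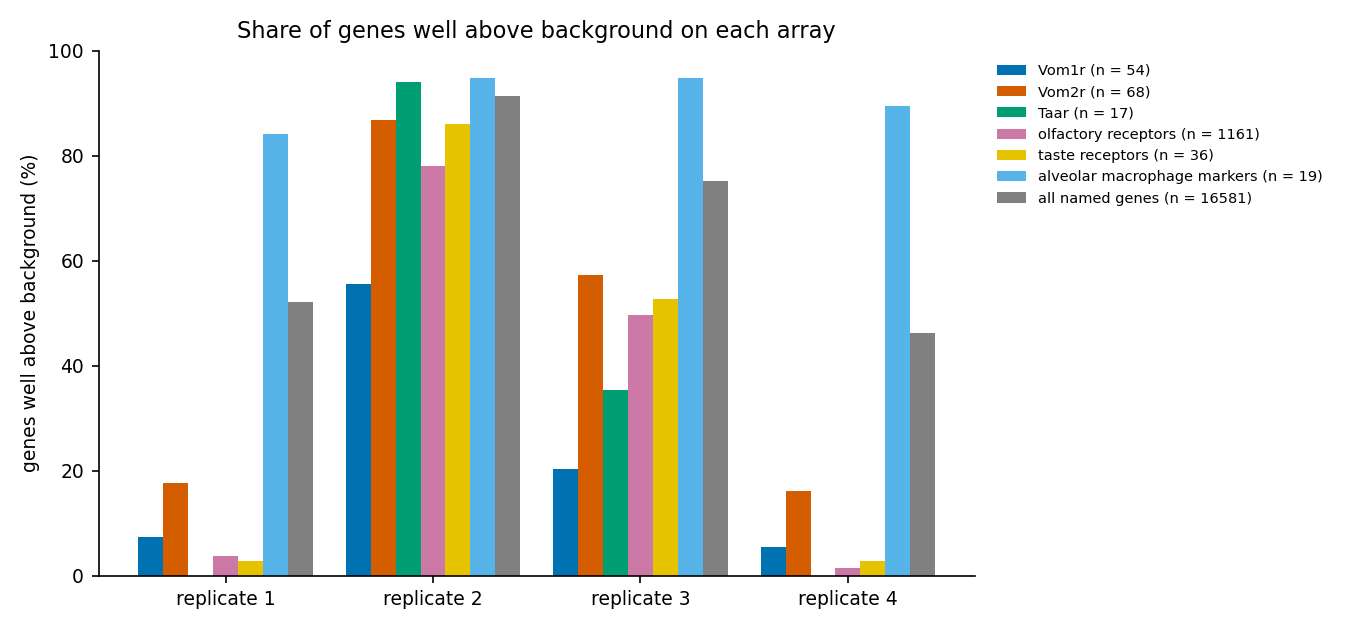
The share of genes above background (percent, y axis from 0) is shown on each of the 4 arrays for the 3 receptor families, olfactory and taste receptors, macrophage markers and all named genes. For the Taar genes it was 0% on replicates 1 and 4, against 52.2% and 46.2% of all named genes, and 94.1% on replicate 2, near the 91.3% of all named genes.

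Other rules for a signal above background changed the counts. By the scanner's looser mark, positive and significant, the share of receptor probes was 31.7%, 89.6%, 70.1% and 25.0% on replicates 1 to 4, against 63.6%, 97.1%, 88.5% and 53.3% of all gene probes. With the dimmest spike-in plus 3 SD as the bar it was 20.1%, 2.45%, 1.22% and 12.8%, against 48.2%, 16.6%, 13% and 40.2%. On both replicates 1 and 4 the looser mark held 27 receptor genes, against 61% of all named genes. The negative control percentile held 19, against 56.9%, and the spike-in threshold 17, against 51.8%. All 14 genes named above were among them under each of the 3 rules, and each rule also held Vom2r70, Vom2r19 and Vom2r55, named after their values were seen. Taar7e was the only Taar gene on both replicates under any of them, by the looser mark.

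On all 4 arrays the looser mark held 26 receptor genes, against 59.6% of all named genes, the negative control percentile 17, against 53.8%, and the spike-in threshold 1, which was Vom2r6, against 15.4%. On replicates 2 and 3 and not on 1 or 4 the 3 rules held 52, 45 and 0 receptor genes, against 17.3%, 17.4% and 0.115% of all named genes. Replicate 2 alone held 21, 15 and 0, against 3.94%, 2.54% and 1.82%, and no array held 11, 25 and 110, against 1.21%, 4.46% and 36%. The spike-in threshold was 9.05, 1119, 380 and 8.38 intensity units on replicates 1 to 4. To be read on replicates 2 and 3 alone, a gene had to pass 1119 and 380 there and stay under 9.05 and 8.38 on replicates 1 and 4. Few genes could do so (0.115% of all named genes), so the count of 0 receptor genes follows from the thresholds and does not describe these genes.

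The median receptor probe read 3.68, 210, 42.1 and 3.50 on replicates 1 to 4, and the median of all gene probes 8.15, 449, 109 and 4.80. Against the 308 negative control spots of each array, the median receptor probe was 1.06, 9.14, 3.27 and 1.05 times their median. On replicates 1 and 4 most receptor probes lay in the range of the negative controls, whereas on replicates 2 and 3 most lay above it. Those above the 99th percentile of the negative control spots were 51 (31.1%), 114 (69.9%), 104 (63.4%) and 28 (17.1%), against 60.9%, 84.9%, 84.7% and 46.5% of all gene probes.

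**Figure D4:**
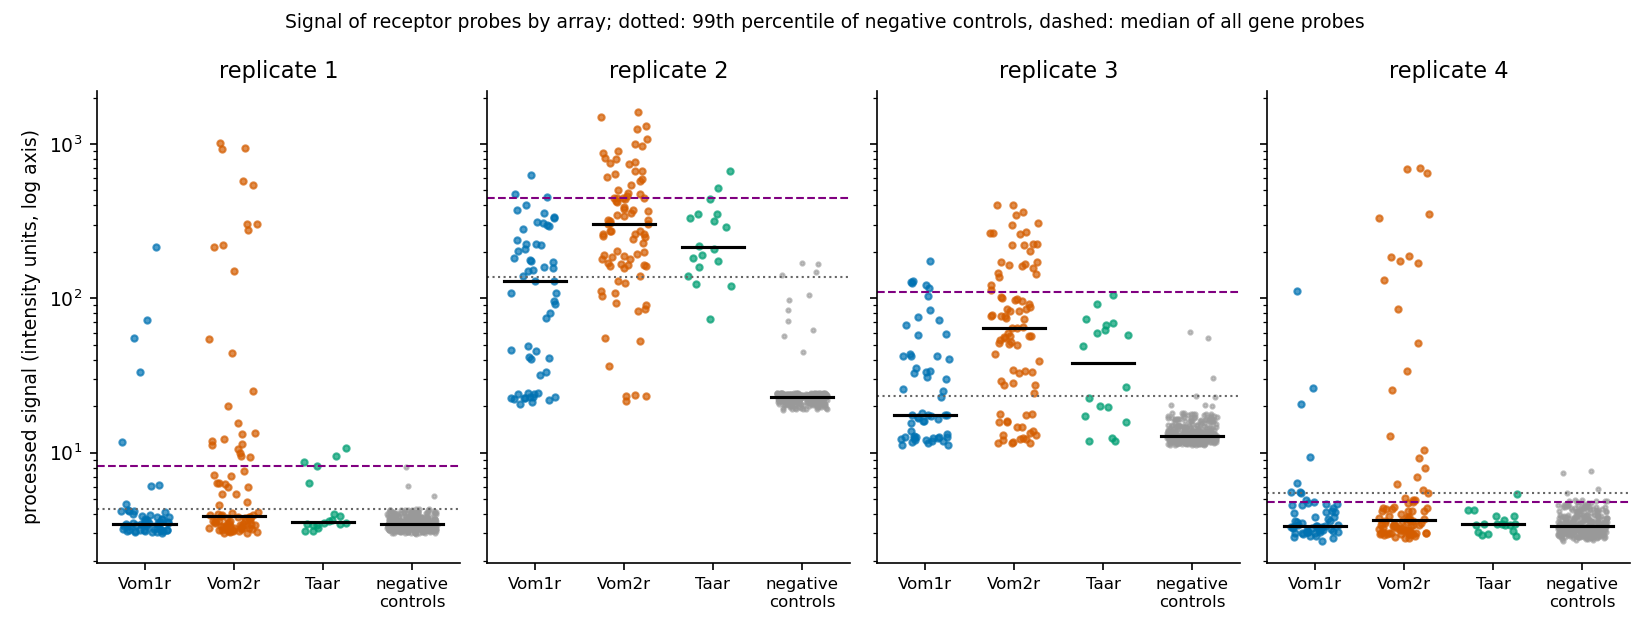
Each point is 1 receptor probe, by family, or 1 negative control spot, with its processed signal (intensity units, log axis) on each of the 4 arrays; bars are medians, the dotted line is the 99th percentile of the negative controls and the dashed line the median of all gene probes. On replicates 1 and 4 the family medians lie beside the negative control medians of 3.45 and 3.34, with a scatter of Vom2r probes far above, and on replicates 2 and 3 most receptor probes lie higher than the controls.

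Vom2r probes had medians of 3.89, 304, 64.6 and 3.64, Vom1r probes 3.46, 130, 17.6 and 3.37, and Taar probes 3.55, 214, 38.0 and 3.43. On replicates 1 and 4 the 3 medians lay within 1 intensity unit of each other, and on replicates 2 and 3 they lay further apart. Each family has its own probes, so these medians describe the probes as printed on the array. Vom2r13 read 15.5, 1613, 263 and 3.60, which passed on replicates 2 and 3 alone. Outside the 14 genes, Vom1r37 (33.3, 45.6, 42.1 and 6.33) and Vom2r35 (20.0, 168, 55.4 and 3.62) were above background on replicate 1 and not on 4; both were named after their values were seen.

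Over the 17 receptor probes above background on both replicates 1 and 4, Spearman's rho across probes was 0.93 between replicates 1 and 4 and 0.85 between 2 and 3. For the other pairs it was 0.22 between 1 and 2, 0.39 between 1 and 3, 0.39 between 2 and 4, and 0.57 between 3 and 4. The probes of Vom1r23, on replicates 2 and 3, and of Vom1r61, on replicate 3, were not above background there. The points share an array, its background and in part their sequences, so these are descriptions with no test.

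**Figure D5:**
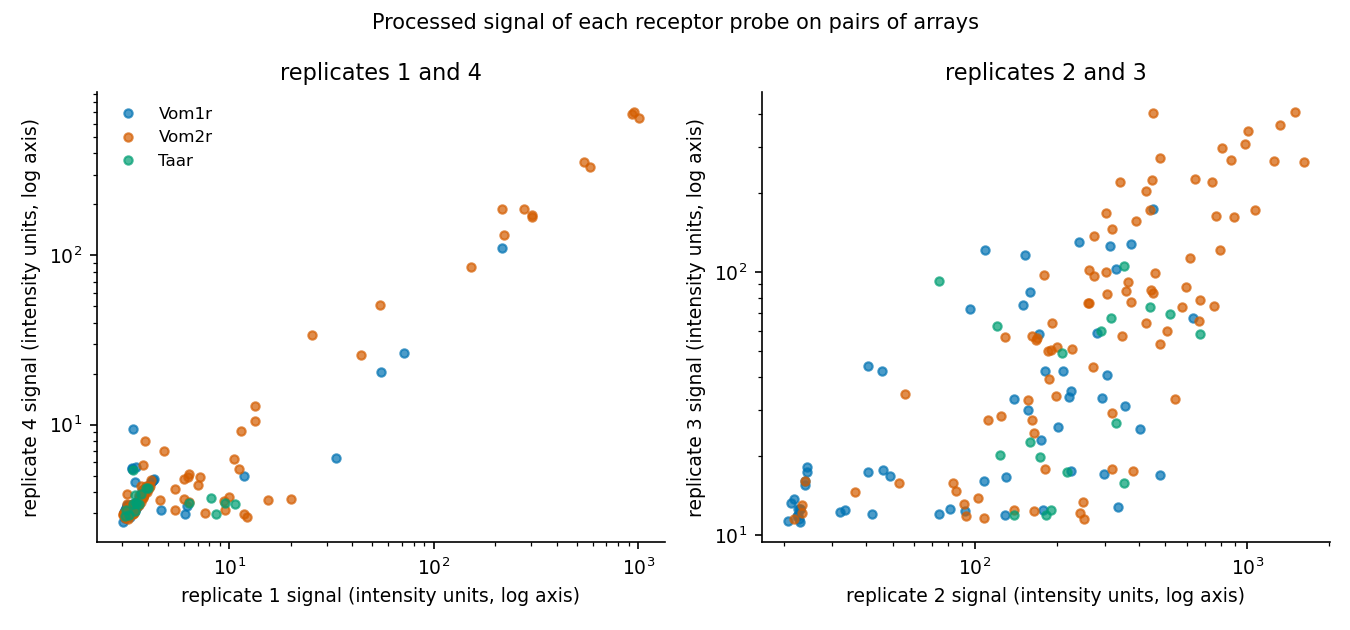
Each point is 1 receptor probe, coloured by family, with its processed signal (intensity units, log axes) on replicates 1 and 4 in the left panel and on replicates 2 and 3 in the right one. On the left most probes crowd near the low end of both axes and the probes above background on both arrays run along a line (rho 0.93), and on the right the probes spread over the whole range.

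On the log2 scale relative to each array's 75th percentile, the level of the 139 genes had a median of -4.61, -1.92, -2.38 and -3.69 on replicates 1 to 4 (-3.15 ± 1.23, SD, n = 4). For all named genes it was -2.20, -0.59, -0.58 and -2.16 (-1.38 ± 0.92, SD, n = 4). Of the 12 genes above background on all 4 arrays, Vom2r6 averaged 2.26 ± 1.64, Vom2r4 2.18 ± 1.75, Vom2r1 2.05 ± 1.88 and Vom2r2 -0.04 ± 0.48 (SD, n = 4 each). The sign depends on the scaling: with the percentile taken over probes detected on all arrays the means of Vom2r6, Vom2r4 and Vom2r1 were -0.57, -0.65 and -0.78, and scaled to the bright spike-ins they were -3.52, -3.60 and -3.73. Over all probes of each gene, Vom2r4 averaged 0.23 and Vom2r1 0.95.

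Other families of chemosensory receptors were read beside them. Of 1161 olfactory receptor genes, 44, 905, 577 and 16 were above background on replicates 1 to 4. On both 1 and 4, 13 were (1.12%), against 45.9% of all named genes. Taste receptor genes were above background in 1, 31, 19 and 1 of 36, and 1 was on both. The 139 vomeronasal and trace amine genes, at 10.1%, had a larger share than the olfactory receptor genes on both replicates 1 and 4. Both shares lay below the 45.9% of all named genes. The difference between the receptor families was not tested. By family the share was 16.2% for Vom2r, 5.56% for Vom1r and 0% for Taar, so the Taar genes lay below the olfactory receptor genes. The counts depended on the rule: by the looser mark they were 27 of 139 and 168 of 1161, against 61% of all named genes. On replicates 2 and 3 the olfactory receptor genes stood at 78.0% and 49.7% and the taste receptor genes at 86.1% and 52.8%, below the 91.3% and 75.2% of all named genes. Fpr1, a formyl peptide receptor of phagocytes, was not above background on replicates 1 and 4 either, with 3.57, 364, 76.8 and 3.34.

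Genes listed for the transduction of vomeronasal and trace amine receptors were read next. The list also holds genes that are not signalling parts, such as B2m. On both replicates 1 and 4, 6 of 20 measured genes (30.0%) were above background, against 45.9% of all named genes: Gnai2, Gnb1, Gng8, Plcb2, Pde4a and B2m. Gnai2, the G protein subunit of type 1 neurons that most cell types also use, had 43711, 18911, 19102 and 23284. Gnao1, the subunit of type 2 neurons, had 6.47, 717, 70.1 and 3.62 with the brighter of its 2 probes, which was above background on replicate 2 alone, and the gene's call on replicate 3 came from the other probe. Gng8, a G protein subunit of vomeronasal neurons, had 157, 317, 162 and 84.6, and Plcb2, a phospholipase C of taste and immune cells, had 73.5, 870, 210 and 37.4. B2m, a part of class I major histocompatibility complexes, had 26923, 16019, 9355 and 15322. The genes Gnal and Cnga2 of the olfactory cascade were above background on replicate 1 but not 4, and the remaining Itpr3, Ano1, Ric8b, Gng13, Adcy3, Cnga4, Cngb1, Pde1c, Rtp1, Rtp2 and Reep1 were on neither. Trpc2 and Ano2 were not analysed here.

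Of 13 measured chemosensory neuron markers, 0 were above background on both replicates 1 and 4, against 45.9% of all named genes. Omp, the olfactory marker protein, had 3.98, 895, 375 and 4.94. Of the macrophage markers, 16 of 19 measured (84.2%) were above background on both. Cd68, a lysosomal protein of macrophages, had 9443, 7650, 7585 and 5909. The exceptions were Csf1r, whose spot was left out on replicate 1, Adgre1, which was above background on no array, and Marco, which was so on replicates 2 and 3 only.

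Of 10 genes listed for the metabolism of trace amines and related amines, 3 (30.0%) were above background on both replicates 1 and 4. Of all named genes 45.9% were. Th, the tyrosine hydroxylase of catecholamine synthesis, had 116, 352, 73.3 and 42.5. Maoa, a monoamine oxidase, had 61.3, 670, 191 and 22.6, and Pnmt, which makes adrenaline, had 35.2, 412, 195 and 19.1. Ddc, the decarboxylase that makes trace amines, had 10.5, 1095, 297 and 5.66 and was above background on replicates 2 and 3 alone. Tph1, Tph2, Maob and Aoc1 were above background on replicates 2 and 3, and Inmt and Aoc3 on no array.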

How the data were processed

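The deposited scanner files were used; per the file headers, the authors took intensity from the scans by Agilent Feature Extraction 11.0.1.1, whose processed signal has background and spatial trend removed. Whether arrays were normalized against each other is not given in the sources used here. Control spots and outlier spots were dropped; among receptor spots this took 1, of Vom2r46 on replicate 2. A probe was above background if over 50% of its kept spots carried the flag. Accessions were matched without versions to the RefSeq gene table of GRCr8, and 21109 of 45598 probes were named. For levels, the brightest probe on average stood for a gene. Named genes were every Taar gene, the Vom1r and Vom2r genes above background on all arrays or on replicates 1 and 4, the first 3 of each family, the first 6 above background on no array, and the list genes. Upstream identity is matched bases of 250 in a global alignment. Members and lists were chosen with earlier results of these data known. The number of arrays limits the precision. The counting procedure was run on simulated data in which the flag itself was set for chosen probes. That checks the counting alone and cannot test the detection of a signal. Python 3.11.15 with pandas 2.3.3 and R 4.3.3 with limma 3.58.1 were used.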

Additional observations from a re-analysis of the deposited data

How the results depend on the processing

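Detection depended on the rule. The share of receptor probes above background on replicates 1 to 4 was 31.7%, 89.6%, 70.1% and 25.0% by the positive and significant flag. By the negative control percentile it was 31.1%, 69.9%, 63.4% and 17.1%, and by the dimmest spike-in plus 3 SD 20.1%, 2.45% and 1.22% on replicates 1 to 3. Receptor genes above background on both replicates 1 and 4 numbered 27 by the positive flag, 19 by the negative controls, 17 by the spike-in and 11 when every probe of a gene had to be. On all 4 arrays they numbered 26 by the positive flag and 1 by the spike-in, and 12 to 13 without each replicate in turn. On replicate 2 alone they numbered 21, 15 and 0 by those 3 rules. On no array they numbered 11 by the positive flag and 110 by the spike-in. On replicates 2 and 3 but neither 1 nor 4 they numbered 0 by the spike-in, whose threshold was far higher on replicates 2 and 3. Olfactory receptor genes on both replicates 1 and 4 numbered 168, 90 and 36 of 1161 by those 3 rules, and taste receptors 6, 4 and 2 of 36. Of all named genes 61%, 56.9% and 51.8% were so. Genes of the amine metabolism list numbered 5 of 10 by the positive flag and by the negative controls, and chemosensory markers 3 and 2 of 13. The median relative level was -5.98 with the percentile over detected probes, -1.17 with normexp, -8.93 with spike-in scaling, -2.06 with quantile normalization, and -3.56 to -2.67 without each replicate. The causes were not tested. With the median spot signal, which has no background subtracted, the median receptor probe read 43, 297.5, 130.5 and 38.5 on replicates 1 to 4, against 3.68, 210, 42.1 and 3.50 for the processed signal, so the gap between arrays was smaller. Measured against the wide spread between arrays, these changes counted as within it, though on replicate 1 the median went from 3.68 to 43. The rest of the 48 other shares, counts and medians also changed by no more than that spread, or stayed within 1.5 times. Such a wide spread does not make the values stable within an array. Of the levels of the 12 genes above background on all arrays, 27 moved by more than their SD, which were all 12 with the percentile over detected probes, all 12 with spike-in scaling and 3 with the mean over probes, and 81 did not. The mean levels of Vom2r6, Vom2r4 and Vom2r1 turned negative under the first 2 of these. Finding members through the gene name column was not run, since the files as read here identify probes by accession. No paired analysis was possible because the 4 arrays form 1 group. Over the 144 receptor probes without the flag on replicates 1 and 4, Spearman's rho was 0.60 between replicates 1 and 4 and 0.70 between 2 and 3. For the other pairs it was 0.25 to 0.32. What this order reflects was not tested, so the order of signals within the negative control range is not interpreted here.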
